A study of Homo sapiens with 4 samples.

Results

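The 49 genes described here encode the ATP-dependent nucleosome remodelling enzymes and the core subunits of their complexes. They were taken by name, and every region of the accessibility table assigned to one of their symbols was kept. That gave 144 of 58127 regions, at 45 of the 49 genes. A promoter region was found for 44 of them, among 11487 genes with one in the table. A gene's promoter region is, of the regions annotated as promoters or within 1 kb of a transcription start, the one whose mean signal is highest.

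Nucleosome remodellers use ATP to slide, evict or exchange histone octamers, and so decide which stretches of DNA are exposed. The SWI/SNF complexes BAF and PBAF eject and slide nucleosomes at enhancers and promoters, while NuRD joins a CHD remodeller to histone deacetylases. ISWI enzymes space nucleosomes evenly. The INO80, SRCAP and EP400 enzymes act on the histone variant H2A.Z. In mammary epithelium, as in other epithelia, BAF subunits are known for work at lineage enhancers, and several of these genes are recurrently mutated in breast and other cancers.

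Open chromatin was measured by ATAC-seq, in which a transposase cuts and tags exposed DNA. The cells were MCF10A, a human mammary epithelial line that is established and non-tumorigenic. Libraries of cells with a hairpin against SNHG8d, an RNA of the SNHG8 host gene (shG8d, 2 libraries), were set against libraries of cells with a control hairpin (shNC, 2 libraries). The labels do not state whether replicate libraries stem from different cultures. The p-values hence speak of the spread among these 4 libraries alone, and that spread may be technical.

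The same libraries carry exchanged group names in different parts of the table. Libraries can be told apart by what 1 read is worth in the deposited values, which is 0.842 and 0.807 normalized counts in one pair and 1.21 and 1.17 in the other. The first pair, called deeper here, had 8124488 and 8111839 reads within regions, and the shallower pair had 4457248 and 4344212. The common regions give the deeper pair the name shG8d, and both group-specific sets give it the name shNC. Which part of the table is labelled rightly cannot be told apart from the files. Differences are therefore given as deeper minus shallower pair, with no direction assigned to the knockdown, and the 3 region sets are kept apart. Pair and depth also cannot be told apart. In bulk chromatin, fewer cells with an open region and less cutting per cell cannot be told apart either.

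The labelled cell type was checked against marker promoters. A promoter region was present for 8 of 9 mammary epithelial markers. Those of KRT14, KRT8 and EGFR are common, and those of KRT5, KRT18, ITGB4, CDH1 and LAMB3 are shNC-specific. Their summed level, which mixes the 2 region sets, was 932 and 872 normalized counts in the deeper pair, against 709 and 607 in the shallower pair. ITGB4 and CDH1, both shNC-specific, were higher in the deeper pair. In that set 28.9% of gene promoters were higher and 0.981% lower, so the direction goes with the set. None of 5 haematopoietic and 0 of 3 endothelial markers had a promoter region in the table. Of 4 fibroblast markers, PDGFRA alone had one, a shG8d-specific region with 15.1 and 23.4 normalized counts in the deeper pair, against 60.4 and 50.4 in the shallower pair, and it was lower in the deeper pair. The CDH1 call was lost without deeper replicate B (limma adjusted p = 0.0767) and the PDGFRA call without deeper replicate A (limma adjusted p = 0.0644). The part of these marker differences in the results below was not tested.

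Among the 44 gene promoters of remodelling genes, the deeper pair was higher at 12 and lower at 6 (limma, adjusted p under 0.05 over all regions), which is 27.3% and 13.6%. Of all 11487 gene promoters, 20.3% were higher and 10.7% lower, so the shares are not far from the background and are no result about these genes in particular. The median log2 difference was 0.10 over the remodelling promoters and 0.14 over all promoters. The 2 libraries of one pair lay wholly above or below the other pair at 37 of the 44 promoters, or 84.1%, against 67.9% of all promoters. The balance of directions turned round with equal library totals alone, a scaling that moved the median log2 difference of all regions to −0.36. There, 6 remodelling promoters were higher and 16 lower, against 8.58% and 25.7% of all gene promoters.

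The counts also differed with the library left out. Without deeper replicate A, 6 remodelling promoters were higher and 0 lower, against 8.02% and 3.18% of all gene promoters, and without deeper replicate B, 7 were higher and 2 lower, against 8.03% and 5.65%. Without shallower replicate A the counts were 16 and 6, against 30.5% and 13.3%, and without shallower replicate B they were 12 and 8, against 17.7% and 11.4%. In each of these fits the remaining pair supplies the spread for both.

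Over all 144 regions of the remodelling genes, the deeper pair was higher at 24 and lower at 19, against 11.1% and 12.4% of all regions. The common set held 94 of them, with 15 higher and 16 lower, against 10.7% and 15.0% of that set. Of 44 shNC-specific regions 9 were higher and 0 lower by limma, against 13.2% and 0.979%, and 0 were lower at an unadjusted p under 0.05 or by limma-voom on recovered reads. Of 6 shG8d-specific regions 3 were lower, against 70.0%. In that set 2738 of 2755 regions had an estimate below 0, and in the shNC-specific set 2842 of all regions were called higher and 210 lower, so the direction of a call in either specific set goes with its set.

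Among the promoters alone, 35 of the 44 promoters lay in the common set, with shG8d as the deeper pair's name. Of these, 7 were higher and 6 lower, against 18.0% and 12.2% of common gene promoters, with a median of −0.24 for the remodelling genes and 0.04 for all. The other 9 lay in the shNC-specific set, with shNC as that pair's name. There 5 were higher and 0 lower by limma, against 28.9% and 0.981%, with medians of 0.89 and 0.50. In that set 0 member promoters were lower at an unadjusted p under 0.05 or by limma-voom. No gene promoter of a member was shG8d-specific.

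**Figure D1:**
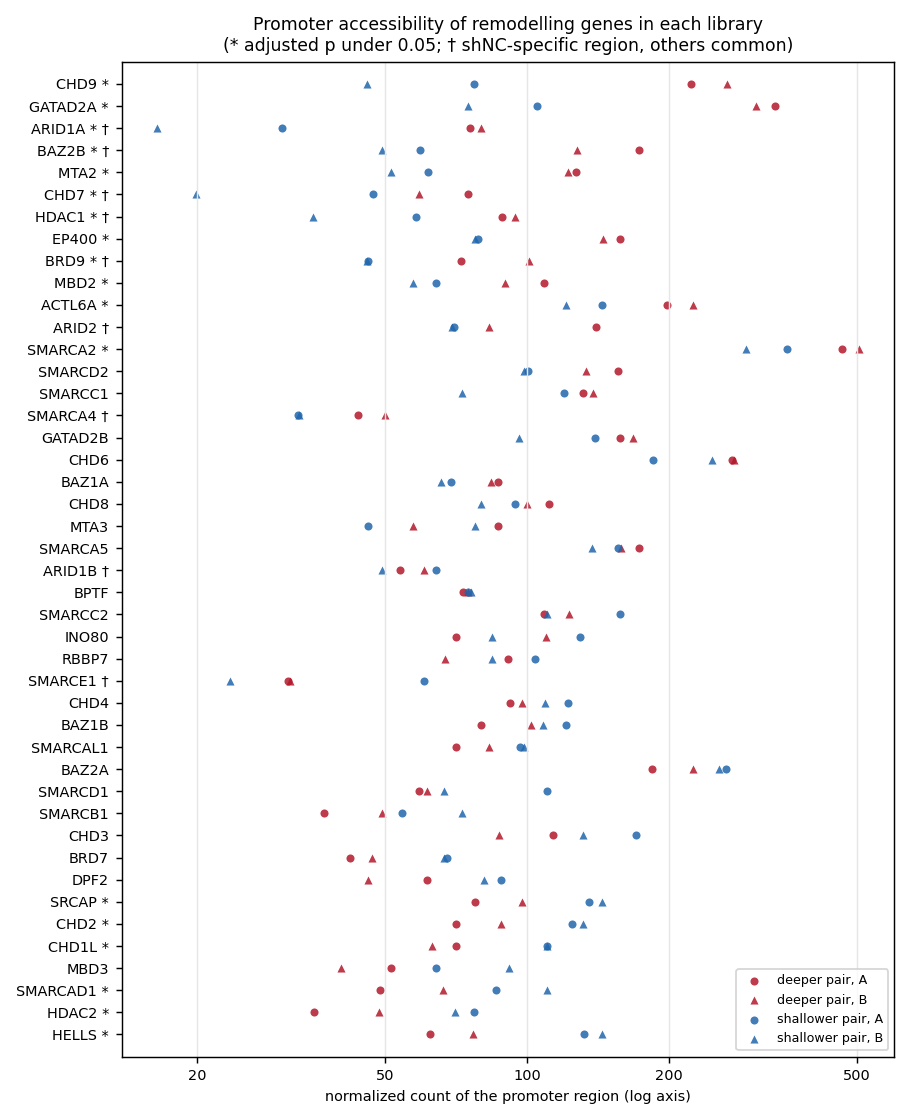
Normalized count (horizontal log axis) of the promoter region of each of 44 remodelling genes, 1 row per gene ordered by the log2 difference, with red points for the deeper pair, blue points for the shallower pair, circles for replicate A and triangles for replicate B. Stars mark the 18 called promoters, at which the points of one pair lie wholly to one side of the other pair, with CHD9 and GATAD2A widest apart at the top and HELLS at the bottom.

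Promoter sequences of 4 members are shown because each gene has a single annotated start near its region and because EP400 and SRCAP, paralogous ATPases, differed in opposite directions. They are RefSeq windows of GRCh38.p14 from 250 bases before to 50 after the start, 5′ to 3′ on the plus strand, while the regions were called on hg19. Of the 49 genes, 41 have such a window and 18 of these have several. Capitals mark matches on either strand to the CCAAT box (CCAAT), the GC box core (GGGCGG), the TATA box (TATAAA) and the ETS core (CCGGAAG). Neighbouring GGGCGG matches in HDAC1 share bases.
EP400 (chr12:131949692-131949991): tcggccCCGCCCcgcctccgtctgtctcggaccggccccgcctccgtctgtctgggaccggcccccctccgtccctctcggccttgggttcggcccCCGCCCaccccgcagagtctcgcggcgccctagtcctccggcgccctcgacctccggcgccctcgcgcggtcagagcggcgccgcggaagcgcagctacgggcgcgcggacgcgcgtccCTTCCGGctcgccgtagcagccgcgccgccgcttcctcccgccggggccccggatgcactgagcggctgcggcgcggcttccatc
SRCAP (chr16:30698921-30699220): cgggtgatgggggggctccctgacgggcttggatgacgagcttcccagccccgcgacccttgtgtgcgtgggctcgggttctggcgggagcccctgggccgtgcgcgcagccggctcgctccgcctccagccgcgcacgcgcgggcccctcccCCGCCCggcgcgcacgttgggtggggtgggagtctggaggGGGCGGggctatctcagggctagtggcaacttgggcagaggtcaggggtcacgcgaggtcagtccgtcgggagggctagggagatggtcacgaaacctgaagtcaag
HDAC1 (chr1:32291833-32292132): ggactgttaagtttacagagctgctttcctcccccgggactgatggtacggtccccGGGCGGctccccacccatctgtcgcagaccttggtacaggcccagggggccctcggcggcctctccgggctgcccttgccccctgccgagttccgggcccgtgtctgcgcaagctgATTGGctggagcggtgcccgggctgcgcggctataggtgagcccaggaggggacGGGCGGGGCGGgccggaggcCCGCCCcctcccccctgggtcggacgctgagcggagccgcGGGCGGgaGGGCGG
HELLS (chr10:94545538-94545837): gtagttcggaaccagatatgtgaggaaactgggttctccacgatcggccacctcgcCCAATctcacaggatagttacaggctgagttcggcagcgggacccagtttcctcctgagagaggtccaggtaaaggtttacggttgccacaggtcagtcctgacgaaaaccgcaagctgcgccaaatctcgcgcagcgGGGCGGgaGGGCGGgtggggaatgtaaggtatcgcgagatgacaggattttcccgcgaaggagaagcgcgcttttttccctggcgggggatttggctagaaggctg

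The EP400 window is 79% G and C with 51 CpG dinucleotides, and the SRCAP window 72% with 30. HDAC1 has 73.7% with 28 CpG, and HELLS 57.7% with 22. The GC box core occurs in all of these windows and in 45.0% of all 35116 windows. The CCAAT box occurs in HDAC1 and HELLS and in 34.6% of all windows. The ETS core occurs in EP400 and in 10.3% of all windows. The TATA box occurs in none of the printed windows and in 11.5% of all. Over the 23 remodelling genes with a single window, 19 hold the GC box core, 10 the CCAAT box, 2 the ETS core and 0 the TATA box. A match is a description of letters only.

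The BAF and PBAF genes had 15 promoter regions. Those of ARID1A, ARID1B, ARID2, BRD9, SMARCA4 and SMARCE1 are shNC-specific, a set with 28.9% of gene promoters higher and 0.981% lower. The others are common, a set with 18.0% higher and 12.2% lower. Of the 15 promoters 4 were higher and 0 lower by limma, against 20.3% and 10.7% of all gene promoters, with a median log2 difference of 0.50. Counts over both sets are hence no result about the complex. At an unadjusted p under 0.05, 2 were lower, against 1858 of all 11487 gene promoters. Limma-voom on recovered reads called 0 lower, against 11.9%. With equal library totals alone the direction turned round, with 1 higher and 4 lower, against 8.58% and 25.7% of all gene promoters. Fewer were higher without either deeper replicate, and more without either shallower one. The shares of all gene promoters in those fits are given above. ARID1A, the DNA-binding subunit that defines the canonical BAF complex, had 75.7 and 79.9 normalized counts in the deeper pair, against 30.2 and 16.4 in the shallower pair, in a shNC-specific region at −416 bp from its start on chromosome 1. Both deeper libraries lay above both shallower ones, by more than the spread within pairs (log2 difference 1.76, SE 0.327, limma adjusted p = 0.00118). SMARCA2, which encodes BRM, one of the alternative BAF ATPases, had the strongest promoter signal of all members and stood in the 99.6th percentile of gene promoters. Its common region on chromosome 9 held 465 and 505 normalized counts in the deeper pair, against 355 and 291 in the shallower pair. The pairs did not overlap, but the step was small beside the level (log2 difference 0.59, SE 0.164, limma adjusted p = 0.0144). A weaker SMARCA2 promoter region, also common, was lower (log2 difference −0.92, limma adjusted p = 0.0114).

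BRD9, a bromodomain subunit of the non-canonical BAF complex, had 72.4 and 101 normalized counts in the deeper pair, against 45.9 and 45.7 in the shallower pair, in a shNC-specific region on chromosome 5. The deeper libraries were the higher ones (log2 difference 0.89, SE 0.261, limma adjusted p = 0.0198). ACTL6A, an actin-related subunit, had 198 and 224 normalized counts in the deeper pair, against 144 and 121 in the shallower pair, in a common region on chromosome 3. Again the pairs did not overlap (log2 difference 0.67, SE 0.187, limma adjusted p = 0.0144). Calls at SMARCA2, BRD9 and ACTL6A, unlike that at ARID1A, did not pass in every fit. The threshold was missed with a limma adjusted p of 0.110 for SMARCA2 and 0.0830 for ACTL6A without deeper replicate A, and 0.190 for SMARCA2, 0.282 for BRD9 and 0.189 for ACTL6A without deeper replicate B. By other scaling or fitting, the limma adjusted p was 0.290 for SMARCA2, 0.132 for BRD9 and 0.211 for ACTL6A with equal library totals alone, and 0.0871 for BRD9 with a fit within the region's own set.

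The other 11 BAF and PBAF promoters did not pass. SMARCA4, which encodes the alternative ATPase BRG1, had 43.8 and 50.03 normalized counts in the deeper pair, against 32.6 and 32.8 in the shallower pair, in a shNC-specific region, with no overlap but too small a difference for a call (log2 difference 0.50, SE 0.308, limma adjusted p = 0.248). SMARCD2, a core subunit, at 0.53 (adjusted p = 0.0608 by limma), and DPF2, which reads acylated histone tails, at −0.66 (adjusted p = 0.0651 by limma), lay nearest to the threshold, on opposite sides of 0. ARID1B, the paralogue of ARID1A, had a log2 difference of 0.02, with overlapping pairs. The PBAF subunits ARID2 and BRD7 stood at 0.62 and −0.59. The core subunits SMARCB1, SMARCC1, SMARCC2, SMARCD1 and SMARCE1 lay between −0.55 and 0.52.

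NuRD genes had 11 promoter regions, of which 4 were higher and 1 lower, against 20.3% and 10.7% of all gene promoters, with a median of 0.24. With equal library totals alone the balance turned to 2 higher and 4 lower, against 8.58% and 25.7%. Without either deeper replicate, fewer were called in each direction, as among all gene promoters. GATAD2A, which bridges the deacetylase and the remodelling modules of NuRD, had 335 and 306 normalized counts in the deeper pair, against 105 and 75.0 in the shallower pair, in a common region at −216 bp from its start on chromosome 19. Every deeper library was well above every shallower one (log2 difference 1.84, SE 0.196, limma adjusted p = 4.53e-06). MTA2, a scaffold of the deacetylase module, had 127 and 122 normalized counts in the deeper pair, against 61.6 and 51.6 in the shallower pair, in a common region on chromosome 11. The pairs were again separate (log2 difference 1.13, SE 0.226, limma adjusted p = 0.00200). Both of these calls passed in every fit that left out a library.

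The deacetylase genes HDAC1 and HDAC2 each had a called region near a start, in different region sets. HDAC1 had 88.4 and 94.4 normalized counts in the deeper pair, against 58.0 and 35.1 in the shallower pair, in the shNC-specific region over its start on chromosome 1, where the deeper pair is labelled shNC. The deeper libraries were the higher ones (log2 difference 0.9998, SE 0.272, limma adjusted p = 0.0130). HDAC2 had 35.3 and 48.4 normalized counts in the deeper pair, against 77.3 and 70.3 in the shallower pair, in a common region on chromosome 6, 440 bp inside its start and within an intron of a noncoding transcript. Here the deeper pair, labelled shG8d, was the lower one (log2 difference −0.82, SE 0.274, limma adjusted p = 0.0365). A weaker HDAC2 region, annotated as promoter at −49 bp and shNC-specific, had 40.4 and 43.6 normalized counts in the deeper pair, against 41.1 and 36.3 in the shallower pair, and its pairs overlapped with no call (log2 difference 0.12, SE 0.304, limma adjusted p = 0.815). MBD2, which binds methylated CpG, had 109 and 89.6 normalized counts in the deeper pair, against 64.0 and 57.4 in the shallower pair, in a common region on chromosome 18. The pairs did not overlap (log2 difference 0.69, SE 0.235, limma adjusted p = 0.0385). The adjusted p in limma came to 0.0710 for HDAC1, 0.316 for HDAC2 and 0.344 for MBD2 without deeper replicate A, 0.0945 for HDAC1, 0.0567 for HDAC2 and 0.105 for MBD2 without deeper replicate B, 0.0597 for HDAC2 without shallower replicate A, and 0.0517 for MBD2 without shallower replicate B. Otherwise the adjusted p in limma was 0.0709 for HDAC1 and 0.285 for MBD2 with equal library totals alone, and 0.0646 for HDAC1 with a fit within the region's own set.

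The remaining NuRD promoters were not called. CHD3, one of the alternative NuRD ATPases, at −0.58 (adjusted p = 0.0540 by limma), and MBD3, the methyl-CpG-binding family subunit that replaces MBD2, at −0.74 (adjusted p = 0.0576 by limma), came closest. CHD4, the other main ATPase, had 91.7 and 97.6 normalized counts in the deeper pair, against 122 and 109 in the shallower pair. The deeper libraries were both below the shallower ones, within the spread the test allows (log2 difference −0.28, SE 0.208, limma adjusted p = 0.345). GATAD2B, MTA3 and RBBP7 had log2 differences of 0.49, 0.24 and −0.26.

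Of the 5 promoters of CHD remodellers outside NuRD, 2 were higher and 1 lower, against 20.3% and 10.7% of all gene promoters, with a median of 0.35. CHD9, a chromodomain helicase of the CHD6 to CHD9 subfamily, had the widest promoter difference of all members, with 222 and 266 normalized counts in the deeper pair, against 77.3 and 45.7 in the shallower pair, in a common region over its start on chromosome 16. Each deeper library was above both shallower ones (log2 difference 2.01, SE 0.234, limma adjusted p = 1.34e-05). CHD7, the CHARGE syndrome gene, had 74.9 and 58.9 normalized counts in the deeper pair, against 47.1 and 19.9 in the shallower pair, in a shNC-specific region on chromosome 8, with the deeper pair above the shallower one despite a wide spread in the shallower pair (log2 difference 1.09, SE 0.350, limma adjusted p = 0.0305). CHD2, an enzyme related to CHD1, had 70.7 and 88.0 normalized counts in the deeper pair, against 124 and 131 in the shallower pair, in a common region on chromosome 15, where the deeper pair was the lower one (log2 difference −0.69, SE 0.215, limma adjusted p = 0.0260). The CHD9 call passed in every fit. Calls were lost, with a limma adjusted p of 0.220 for CHD7 and 0.289 for CHD2 without deeper replicate A, 0.0567 for CHD7 and 0.0652 for CHD2 without deeper replicate B, and 0.228 for CHD7 without shallower replicate B. Under other settings the adjusted p in limma was 0.101 for CHD7 with equal library totals alone, and 0.0889 for CHD7 with a fit within the region's own set. CHD6, the strongest promoter of this group, had 271 and 274 normalized counts in the deeper pair, against 185 and 246 in the shallower pair, and was not called (log2 difference 0.35, SE 0.179, limma adjusted p = 0.160), though without shallower replicate B it was higher (log2 difference 0.56, limma adjusted p = 0.00768). CHD8, a regulator of beta-catenin target genes, stood at 0.28.

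ISWI genes had 6 promoter regions, with 1 higher and 0 lower by limma, against 20.3% and 10.7% of all gene promoters, and a median of 0.07. At an unadjusted p under 0.05 and by limma-voom, 0 were lower as well, but with equal library totals alone 1 was higher and 2 lower, against 8.58% and 25.7%. The BAZ2B promoter alone is shNC-specific, in a set with 28.9% of gene promoters higher and 0.981% lower. BAZ2B, an accessory bromodomain subunit, had 173 and 128 normalized counts in the deeper pair, against 59.2 and 49.2 in the shallower pair, in this region on chromosome 2. Both deeper libraries lay far above the shallower pair (log2 difference 1.44, SE 0.232, limma adjusted p = 0.000374), and the call passed in every fit. A weaker BAZ2B promoter region, in the common set, was lower (log2 difference −0.91, limma adjusted p = 0.0235). BAZ2A, which silences ribosomal DNA in the NoRC complex, had the strongest ISWI promoter, with 183 and 224 normalized counts in the deeper pair, against 263 and 254 in the shallower pair, and was not called (log2 difference −0.35, SE 0.175, limma adjusted p = 0.153). With equal library totals alone BAZ2A was lower, at −0.70 (limma adjusted p = 0.00604). SMARCA5, the ISWI ATPase SNF2H, had 173 and 158 normalized counts in the deeper pair, against 156 and 137 in the shallower pair, and its pairs did not overlap (log2 difference 0.18, SE 0.187, limma adjusted p = 0.528). BPTF, the large NURF subunit, was near 0 at −0.03, and BAZ1A and BAZ1B, of the ACF and WICH complexes, stood at 0.34 and −0.34.

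Of the 3 promoters of INO80, SRCAP and EP400, all common, 1 was higher and 1 lower, against 18.0% and 12.2% of common gene promoters. Counts over 3 promoters are no result about the group. EP400, the ATPase of the TIP60 acetyltransferase complex, had 157 and 144 normalized counts in the deeper pair, against 78.5 and 77.3 in the shallower pair, over the window printed above. Both deeper libraries were above both shallower ones (log2 difference 0.94, SE 0.204, limma adjusted p = 0.00333). SRCAP had 77.4 and 97.6 normalized counts in the deeper pair, against 135 and 144 in the shallower pair, over its own window, and its deeper libraries were the lower ones (log2 difference −0.68, SE 0.210, limma adjusted p = 0.0251). Both regions are common, so the deeper pair carries the same label, shG8d, at each. INO80 had 70.7 and 109.8 normalized counts in the deeper pair, against 129 and 84.4 in the shallower pair, with overlapping pairs and no call (log2 difference −0.24, SE 0.254, limma adjusted p = 0.519). The limma adjusted p was 0.0691 for EP400 and 0.301 for SRCAP without deeper replicate A, and 0.0600 for SRCAP without deeper replicate B.

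Of 4 other SNF2 helicase promoters, 0 were higher by limma, by limma-voom or at an unadjusted p under 0.05, and 3 were lower, with a median of −0.74. These counts take 1 region per gene. A slightly weaker CHD1L promoter region, at −59 bp and common, was higher (log2 difference 1.07, limma adjusted p = 0.00596). With equal library totals alone 4 were lower, against 25.7% of all gene promoters. Fewer were lower without deeper replicate A, deeper replicate B or shallower replicate B. All 4 counted promoters lie in common regions, where 18.0% of gene promoters were higher and 12.2% lower as scaled by the authors. HELLS, which supports DNA methylation at repeats, had 62.3 and 76.7 normalized counts in the deeper pair, against 132 and 144 in the shallower pair, on chromosome 10. Both deeper libraries were well below the shallower ones (log2 difference −0.99, SE 0.217, limma adjusted p = 0.00369). SMARCAD1, a factor for heterochromatin upkeep after replication, had 48.8 and 66.2 normalized counts in the deeper pair, against 85.8 and 110.1 in the shallower pair, on chromosome 4, with no overlap (log2 difference −0.76, SE 0.250, limma adjusted p = 0.0327). CHD1L, which is recruited to DNA damage by poly(ADP-ribose), had 70.7 and 62.9 normalized counts in the deeper pair, against 109.9 and 110.1 in the shallower pair, on chromosome 1, again with the deeper pair lower (log2 difference −0.71, SE 0.222, limma adjusted p = 0.0259). SMARCAL1, an annealing helicase of stalled forks, had 70.7 and 83.1 normalized counts in the deeper pair, against 96.6 and 98.4 in the shallower pair, and was not called (log2 difference −0.34, SE 0.223, limma adjusted p = 0.278). The threshold was missed with a limma adjusted p of 0.0731 for HELLS, 0.318 for SMARCAD1 and 0.110 for CHD1L without deeper replicate A, 0.197 for CHD1L without deeper replicate B, and 0.115 for SMARCAD1 without shallower replicate B.

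**Figure D2:**
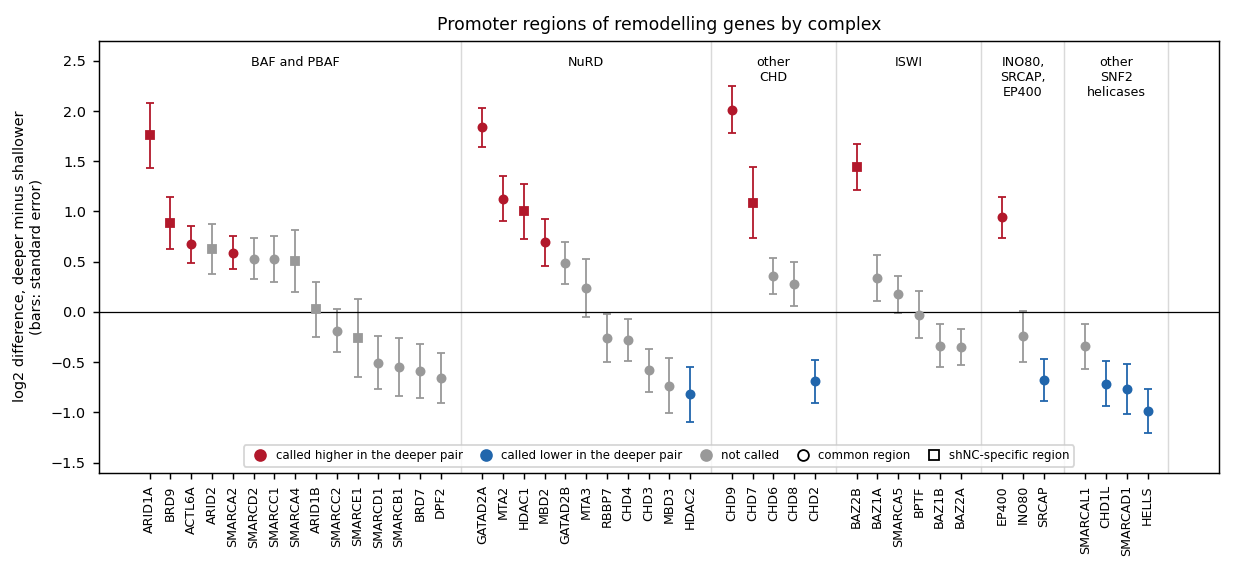
Log2 difference, deeper minus shallower pair, of each promoter region, grouped by complex, with bars of 1 standard error, red and blue for calls higher and lower in the deeper pair, grey for no call, circles for common and squares for shNC-specific regions. Called points lie on both sides of 0 in NuRD, in the other CHD genes and in the INO80, SRCAP and EP400 group. They lie only above 0 in BAF and PBAF and in ISWI, and only below 0 in the other helicases, as scaled by the authors. With equal library totals alone BAF and PBAF had 1 higher and 4 lower, and ISWI 1 higher and 2 lower. Each gene has 1 point. Further promoter regions of CHD9, CHD1L, SMARCA2 and BAZ2B that were called the other way are not drawn.

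Some members have more than 1 promoter, and these did not always differ the same way. Of 6 members with 2 or more regions annotated as promoters, CHD9, CHD1L, SMARCA2 and BAZ2B had one called higher and another called lower in the deeper pair. Among all 579 genes with 2 or more such regions, 44 had both, or 7.60%. In each of these 4 members the opposed regions are annotated to different transcripts. The count of 4 members fell to 0 without deeper replicate A, where 1.38% of genes had both, and to 2, BAZ2B and CHD9, without deeper replicate B, where 1.73% had both. With equal library totals alone it was 3, without SMARCA2.

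At CHD9 the common region at −5 bp from one start was the higher one, as given above, while a second common region at −105 bp from another start had 26.9 and 41.2 normalized counts in the deeper pair, against 73.7 and 85.5 in the shallower pair. That region was the lower one in the deeper pair (log2 difference −1.23, SE 0.290, limma adjusted p = 0.00575). The ratio of the first region to the second was 8.25 and 6.45 in the deeper pair, against 1.05 and 0.534 in the shallower pair. Both regions are in the common set, and a ratio within a library does not depend on its scaling. A further CHD9 promoter region, at −69 bp and shG8d-specific, had 53.9 and 52.5 normalized counts in the deeper pair, against 64.0 and 76.2 in the shallower pair, and was not called (log2 difference −0.39, SE 0.256, limma adjusted p = 0.288).

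CHD1L showed the reverse order of strength. Its slightly stronger region was lower in the deeper pair, while the region at −59 bp from another start had 103 and 128 normalized counts in the deeper pair, against 67.7 and 43.4 in the shallower pair. This one was higher in the deeper pair (log2 difference 1.07, SE 0.254, limma adjusted p = 0.00596). The ratio of the second region to the first was 1.45 and 2.04 in the deeper pair, against 0.615 and 0.394 in the shallower pair. At SMARCA2, a weaker promoter region 362 bp into another transcript had 49.7 and 65.4 normalized counts in the deeper pair, against 95.4 and 123 in the shallower pair. It was lower (log2 difference −0.92, SE 0.243, limma adjusted p = 0.0114), and the main promoter exceeded it by 9.36 and 7.73 times in the deeper pair, against 3.72 and 2.36 times in the shallower pair.

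BAZ2B had its higher region in the shNC-specific set and its lower one in the common set, so the deeper pair is named shNC at one and shG8d at the other, and the first direction goes with its set. The common region had 34.5 and 52.5 normalized counts in the deeper pair, against 88.2 and 73.8 in the shallower pair, with the deeper pair lower (log2 difference −0.91, SE 0.277, limma adjusted p = 0.0235). The ratio of the 2 regions was 5 and 2.43 in the deeper pair, against 0.671 and 0.667 in the shallower pair. The adjusted p in limma came to 0.0917 for the second CHD9 region, 0.159 for the second SMARCA2 region and 0.286 for the common BAZ2B region without deeper replicate A, and 0.0888 for the second CHD1L region without deeper replicate B.

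**Figure D3:**
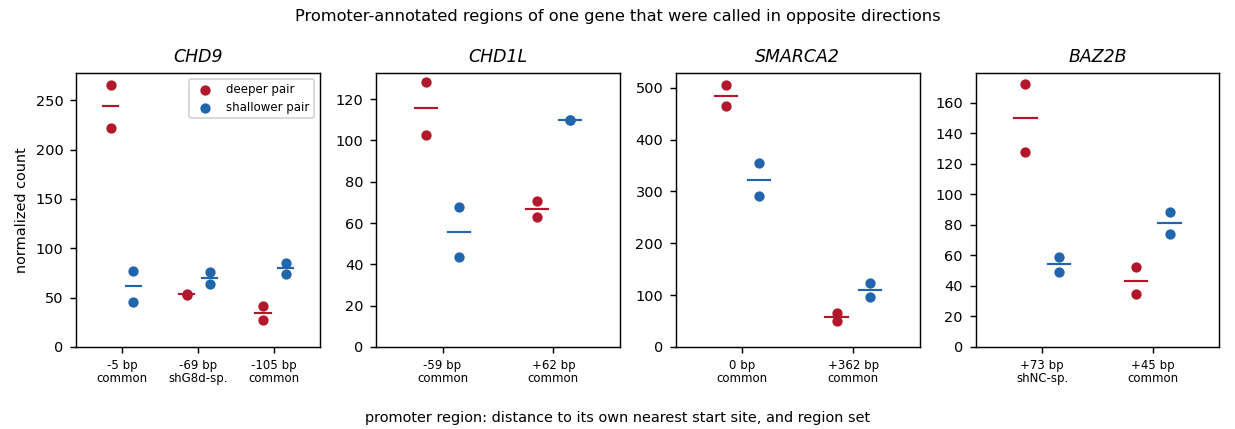
Normalized counts of the promoter-annotated regions of CHD9, CHD1L, SMARCA2 and BAZ2B, with 1 point per library, a line at the mean of each pair, and the deeper pair (red) left of the shallower pair (blue) at each region. In each gene the first region is higher in the deeper pair and the last is lower.

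Away from gene promoters, remodelling genes had 100 regions, with the deeper pair higher at 12 and lower at 13, against 8.90% and 12.8% of all such regions. The median log2 difference was −0.08, beside −0.05 over all. Introns held 46 of them and intergenic DNA 44. In common regions outside promoters 8 of 59 were higher and 10 lower, against 8.35% and 15.9%. In shNC-specific ones 4 of 35 were higher and 0 lower by limma, against 10.8% and 0.978%, with 0 lower at an unadjusted p under 0.05 and 0 by limma-voom. The 6 shG8d-specific regions all lie outside gene promoters.

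SMARCA2 had the most regions of all members, 20 in number, followed by CHD6 and CHD9 with 11 each. Of the SMARCA2 regions 2 were higher and 5 lower. The lower ones included a series of common regions annotated as intergenic, with distances counted downstream of the assigned start. The region at 181807 bp had 28.6 and 21.0 normalized counts in the deeper pair, against 60.4 and 85.5 in the shallower pair, with the deeper pair far below (log2 difference −1.51, SE 0.315, limma adjusted p = 0.00254). The strongest of the series, at 133868 bp, had 83.3 and 122 normalized counts in the deeper pair, against 223 and 268 in the shallower pair. No deeper library reached a shallower one there (log2 difference −1.27, SE 0.207, limma adjusted p = 0.000396). Nearer to the start, a region at 127203 bp had a log2 difference of −1.20 (limma adjusted p = 0.00842) and one at 102539 bp a difference of −0.66 (limma adjusted p = 0.0287). An intergenic region at 58317 bp went the other way, with 82.5 and 70.2 normalized counts in the deeper pair, against 43.5 and 46.9 in the shallower pair (log2 difference 0.74, SE 0.260, limma adjusted p = 0.0452). Within the stretch of the series, a common region at 120868 bp also had an estimate above 0 but was not called (log2 difference 0.50, limma adjusted p = 0.106). Calls were lost, with a limma adjusted p of 0.0783 for that at 102539 bp and 0.331 for that at 58317 bp without deeper replicate A, 0.0577 for the region at 127203 bp, 0.293 for that at 102539 bp and 0.133 for that at 58317 bp without deeper replicate B, and 0.0518 for that at 102539 bp without shallower replicate B. Under other settings the adjusted p in limma was 0.272 for that at 58317 bp with equal library totals alone. The regions at 133868 and 181807 bp passed in every fit.

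**Figure D4:**
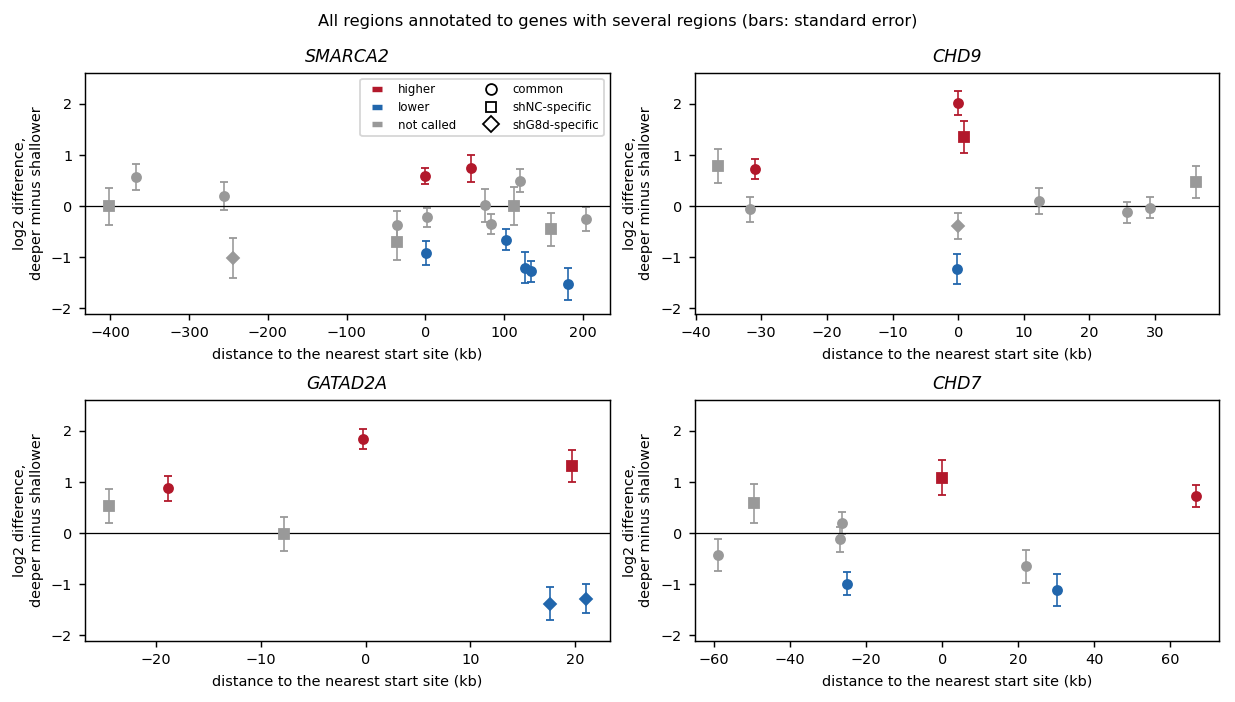
Log2 difference, deeper minus shallower pair, with bars of 1 standard error, of every region of SMARCA2, CHD9, GATAD2A and CHD7 against the distance to the nearest start in kb, with red and blue for calls higher and lower and grey for no call. In SMARCA2 the called regions from 102539 bp onward and the promoter region at 362 bp lie below 0. The main promoter and the region at 58317 bp lie above it.

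GATAD2A had 3 regions higher and 2 lower. Beside its promoter, a shNC-specific region in the first intron, 19737 bp from the start, had 98.5 and 80.7 normalized counts in the deeper pair, against 50.7 and 24.6 in the shallower pair, higher in the deeper pair (log2 difference 1.31, SE 0.311, limma adjusted p = 0.00600). A common intergenic region at −18924 bp was also higher, at 0.88. In the same intron, on either side of the shNC-specific region, 2 shG8d-specific regions were lower. The one at 17596 bp had 36.2 and 19.4 normalized counts in the deeper pair, against 74.9 and 66.8 in the shallower pair (log2 difference −1.38, SE 0.325, limma adjusted p = 0.00562), and the one at 21049 bp had 27.8 and 44.4 normalized counts in the deeper pair, against 78.5 and 96.1 in the shallower pair (log2 difference −1.28, SE 0.288, limma adjusted p = 0.00416). These directions go with the sets, 70.0% of shG8d-specific regions being lower and 13.2% of shNC-specific regions higher. The limma adjusted p was 0.0691 for the region at 19737 bp, 0.0954 for that at −18924 bp and 0.0751 for that at 21049 bp without deeper replicate A, and 0.107 for that at −18924 bp and 0.0882 for that at 17596 bp without deeper replicate B. Another scaling or fit gave a limma adjusted p of 0.105 for that at −18924 bp with equal library totals alone.

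MTA2 had a second region 1934 bp inside the gene, in an intron and shNC-specific, with 84.2 and 115 normalized counts in the deeper pair, against 38.7 and 36.3 in the shallower pair. It was higher (log2 difference 1.37, SE 0.263, limma adjusted p = 0.00149) and passed in every fit. The MTA2 promoter was higher too, but it is common, so the deeper pair is named shG8d there and shNC here. Directions of calls in the shNC-specific and shG8d-specific sets go with the set. SMARCC1, a core BAF scaffold, had an intronic common region 56100 bp from its start with 99.3 and 119 normalized counts in the deeper pair, against 51.9 and 38.7 in the shallower pair, also separate between the pairs (log2 difference 1.26, SE 0.251, limma adjusted p = 0.00197) and called in every fit. A shG8d-specific region in the first SMARCC1 intron, at 667 bp, had 25.2 and 19.4 normalized counts in the deeper pair, against 51.9 and 45.7 in the shallower pair, and was lower (log2 difference −1.10, SE 0.336, limma adjusted p = 0.0230). A shNC-specific region of CHD9, 958 bp from its start, was higher, with 61.4 and 57.3 normalized counts in the deeper pair, against 23.0 and 22.3 in the shallower pair (log2 difference 1.35, SE 0.315, limma adjusted p = 0.00525). A common CHD9 region at −30909 bp was higher too, with a log2 difference of 0.73. The deeper pair is named shNC at the region at 958 bp, and shG8d at −30909 bp and at the CHD9 promoter. The threshold was missed with a limma adjusted p of 0.0659 for the SMARCC1 region at 667 bp, 0.0900 for the CHD9 region at 958 bp and 0.148 for that at −30909 bp without deeper replicate A, 0.168 for the SMARCC1 region at 667 bp, 0.0531 for the CHD9 region at 958 bp and 0.0592 for that at −30909 bp without deeper replicate B, and 0.0747 for that at −30909 bp without shallower replicate B. By other scaling or fitting, the limma adjusted p was 0.159 for that at −30909 bp with equal library totals alone.

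CHD7 and SMARCAD1 had called common regions away from their promoters. At CHD7, a region at −24988 bp had 60.6 and 87.2 normalized counts in the deeper pair, against 128 and 164 in the shallower pair, and was lower (log2 difference −0.99, SE 0.230, limma adjusted p = 0.00532). A region at 30120 bp was lower too, at −1.11, and one at 66605 bp was higher, at 0.73. The SMARCAD1 region at 9362 bp had 26.1 and 17.8 normalized counts in the deeper pair, against 51.9 and 45.7 in the shallower pair, and was lower, like its promoter (log2 difference −1.14, SE 0.343, limma adjusted p = 0.0217). The adjusted p in limma came to 0.123 for CHD7 at −24988 bp, 0.213 for CHD7 at 30120 bp and 0.246 for CHD7 at 66605 bp without deeper replicate A, and 0.0618 for CHD7 at 66605 bp and 0.191 for SMARCAD1 at 9362 bp without deeper replicate B. Otherwise the adjusted p in limma was 0.182 for CHD7 at 66605 bp with equal library totals alone.

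No promoter region was found for 5 members. CHD1, which spaces nucleosomes over transcribed genes, the NuRD scaffold MTA1, the histone-binding RBBP4 and the BAF subunit SMARCD3 had no region in the table under their own symbol. A region counts under the nearest start, so promoters shared with a divergent neighbour can carry the neighbour's name. RBBP4 starts within 1 kb of ZBTB8OS on the opposite strand in RefSeq, and the ZBTB8OS promoter had 151 and 189.6 normalized counts in the deeper pair, against 210.2 and 216 in the shallower pair, with no call (log2 difference −0.33, SE 0.182, limma adjusted p = 0.202). CHD1 likewise neighbours LOC100289230, with 137 and 176 in the deeper pair, against 153 and 101 in the shallower pair (log2 difference 0.32, SE 0.219, limma adjusted p = 0.309). PBRM1, the PBAF bromodomain subunit, neighbours GNL3, whose promoter had 69.8 and 66.2 in the deeper pair, against 88.2 and 62.1 in the shallower pair (log2 difference −0.12, SE 0.251, limma adjusted p = 0.764). PBRM1 itself had intronic regions only, the stronger of them 14545 bp from its start with 270.1 and 287 normalized counts in the deeper pair, against 274 and 286 in the shallower pair. That region was level between the pairs (log2 difference −0.01, SE 0.164, limma adjusted p = 0.980).

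Partner genes of the same machines, listed by complex, are to be read against the 20.3% higher and 10.7% lower of all gene promoters. With equal library totals alone the shares are 8.58% and 25.7%. Fits that left out a library are to be read against their own shares, given above. Of 26 promoters of INO80, SRCAP and TIP60 partners 1 was higher and 3 lower, with a median of −0.25. By limma with equal library totals alone, 0 were higher and 11 lower. Without shallower replicate A 5 were higher and 5 lower, against 30.5% and 13.3% of all gene promoters, and without deeper replicate A or B 0 were higher and 1 lower. RUVBL1, an AAA+ ATPase shared by these complexes, was the higher one, with 197 and 189 in the deeper pair, against 104 and 116 in the shallower pair (log2 difference 0.81, SE 0.188, limma adjusted p = 0.00532). MRGBP, a TIP60 subunit, in a shG8d-specific region, had 31.1 and 29.1 in the deeper pair, against 95.4 and 98.4 in the shallower pair (log2 difference −1.66, SE 0.267, limma adjusted p = 0.000379), and MORF4L1, a chromodomain subunit, had 64.8 and 58.9 in the deeper pair, against 104 and 107 in the shallower pair (log2 difference −0.76, SE 0.227, limma adjusted p = 0.0211). Both were lower. MRGBP passed in every fit, but 67.2% of shG8d-specific gene promoters were lower and 0 higher, so its direction goes with its set. RUVBL1 and MORF4L1 missed the threshold without deeper replicate A and without deeper replicate B, their largest adjusted p in limma being 0.0877 and 0.159, and RUVBL1 also with equal library totals alone.

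Among 16 promoters of BAF, NuRD and ISWI partners 3 were higher and 3 lower, with a median of 0.04. The counts were 1 and 4 with equal library totals alone, 3 and 1 without deeper replicate A, and 2 and 2 without deeper replicate B. C17orf49, a BPTF-associated factor, had 185 and 189.6 in the deeper pair, against 94.2 and 75.0 in the shallower pair (log2 difference 1.15, SE 0.201, limma adjusted p = 0.000763), and BCL7B, a BAF subunit, had 139.7 and 178 in the deeper pair, against 103 and 68.0 in the shallower pair (log2 difference 0.91, SE 0.228, limma adjusted p = 0.00814). These were the higher ones of largest difference. BCL11B, a BAF-associated zinc finger protein, was lower, with 40.4 and 61.3 in the deeper pair, against 89.4 and 168 in the shallower pair (log2 difference −1.28, SE 0.286, limma adjusted p = 0.00403). POLE3, the histone-fold partner of CHRAC1 in the ISWI complex CHRAC, was lower in a shG8d-specific region, where the deeper pair is named shNC. It had 46.3 and 47.6 in the deeper pair, against 133 and 92.6 in the shallower pair (log2 difference −1.22, SE 0.250, limma adjusted p = 0.00226). Of shG8d-specific regions 70.0% were lower, so this direction goes with its set. C17orf49 and POLE3 passed in every fit. BCL7B missed the threshold without deeper replicate B (limma adjusted p = 0.13) and with equal library totals alone, and BCL11B without deeper replicate A (limma adjusted p = 0.0515).

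The other SNF2 ATPases had 11 promoters, with 0 higher by limma, by limma-voom or at an unadjusted p under 0.05, 2 lower and a median of −0.28. The counts were 0 and 4 with equal library totals alone, 0 and 1 without deeper replicate A or B, and 1 and 2 without shallower replicate B. TTF2, a transcription release factor, had 242 and 201 in the deeper pair, against 364 and 517 in the shallower pair (log2 difference −0.97, SE 0.185, limma adjusted p = 0.00139), and ERCC6, of transcription-coupled repair, had 146 and 128 in the deeper pair, against 196 and 199 in the shallower pair (log2 difference −0.52, SE 0.183, limma adjusted p = 0.0443). TTF2 passed in every fit, but ERCC6 missed the threshold without deeper replicate A or B, with a largest adjusted p in limma of 0.341, and with median-of-ratios size factors. Histone chaperones, which hand histones to and from DNA, had 14 promoters with 3 higher and 2 lower and a median of 0.02. The counts were 2 and 5 with equal library totals alone, 2 and 0 without deeper replicate A, 2 and 1 without deeper replicate B, and 5 and 1 without shallower replicate A. CHAF1A, of the replication-coupled chaperone CAF-1, had 139 and 113 in the deeper pair, against 67.7 and 37.5 in the shallower pair (log2 difference 1.30, SE 0.267, limma adjusted p = 0.00241), and CABIN1, of the HIRA complex, had 168 and 141 in the deeper pair, against 61.6 and 78.5 in the shallower pair (log2 difference 1.14, SE 0.217, limma adjusted p = 0.00143). Both were higher in every fit. The FACT subunits SSRP1, with 34.5 and 44.4 in the deeper pair, against 89.4 and 64.4 in the shallower pair (log2 difference −0.94, SE 0.281, limma adjusted p = 0.0215), and SUPT16H, with 133 and 132 in the deeper pair, against 185 and 218 in the shallower pair (log2 difference −0.60, SE 0.185, limma adjusted p = 0.0250), were both lower. Their calls were lost when deeper replicate A was left out, with largest adjusted p in limma of 0.187 and 0.176 over the fits that left out a library. SSRP1 was also lost without shallower replicate A, and SUPT16H without deeper replicate B and without shallower replicate B.

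The authors' deposited table also holds an unadjusted p-value per region. It was under 0.05 at 43 of the 144 remodelling-gene regions, or 29.9%, against 24.2% of all regions in the authors' deposited table.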

How the data were processed

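The labels name 2 shG8d and 2 shNC libraries of ATAC-seq in MCF10A cells. Per the submitters' processing notes, CASAVA 1.4 made the base calls and hg19 was the genome. The sources used here name no aligner, peak caller, counter or test. The authors deposited 1 table of log10 normalized values per region and library, with a gene symbol, the distance to a start, a class, and their own log2 fold change and p-value. Region ends were not used here.

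The deposited log10 values, taken back to the linear scale, are whole multiples of 1 step per library, within 0.05 reads. The step names the library, and its 4 values recur in all 3 region sets under exchanged labels. Dividing by it gave reads. Median reads per region were 65 and 68 in the deeper libraries, and 48 and 49 in the shallower ones. A floor of 3 reads corresponds to between 2.42 and 3.62 normalized counts, which covers counting error only. Within pairs, reads differed by more than sampling noise (chi-square per region 2.20 for the deeper libraries and 2.76 for the shallower ones).

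The planned test for normalized values was limma (version 3.58.1, R 4.3.3) on log2(normalized count + 1) with its trend option, deeper minus shallower pair, over all 58127 regions, with Benjamini-Hochberg adjustment at 0.05. A call is an adjusted p under that threshold. The pseudocount understates changes of low regions. A filter of 10 normalized counts in at least 2 libraries removed 0 regions. The test was checked on simulated data, where it recovered 35% of 100 regions changed 2-fold and 95% of 100 changed 4-fold. In that simulation 133 regions were called, against 6477 higher and 7220 lower in the data, so its adjustment was stricter. The recovered shares hence do not carry over to the data. A region not called may still differ. The SMARCA2 region at −243789 bp was not called with a log2 difference of −1.02 (limma adjusted p = 0.0638). How the authors chose the group-specific regions is not given, so p-values there may not be independent of it.

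The members, partner lists and tests were chosen with earlier results of these data known. Genes named are those with a called promoter, the strongest promoter of each complex, members lacking regions, the called regions of largest difference elsewhere, members with most regions or with calls in both directions, and up to 2 partner promoters per direction and list. The remaining values are given as ranges, or for genes chosen after their values were seen, next to the threshold or as paralogues of a named gene. Alternatives were a pseudocount of 5, no filter, a mean of at least 30, equal totals, median-of-ratios factors, a fit within each set, limma-voom, a replicate block, every annotated promoter, and leaving out each library.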

Additional observations from a re-analysis of the deposited data

How the results depend on the processing

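Of 40 called regions named in the text, 9 were called in all 12 alternative fits, among them 5 of the 18 called promoters (CHD9, GATAD2A, ARID1A, BAZ2B and MTA2). No direction reversed. With equal library totals alone, 6 remodelling regions of the common set were higher and 39 lower (4.01% and 36.6% of all common regions), where 15 and 16 are reported. In shNC-specific regions 5 were higher and 1 lower (5.69% and 6.31% of that set), where 9 and 0 are reported, and in shG8d-specific regions 6 were lower (93.4%), where 3 are. Of the gene promoters 6 were higher and 16 lower (8.58% and 25.7%), where 12 and 6 are reported. A fit within each region set gave 5 shNC-specific regions higher (5.60% of that set), and among the gene promoters 9 lower (12.3%). Leaving out a library gave between 5 and 19 higher and between 4 and 20 lower in common regions (3.84% to 15.3% and 4.81% to 19.8% of the set), between 4 and 11 higher and between 0 and 2 lower in shNC-specific regions (3.47% to 21.3% and 0.214% to 3.14%), and between 1 and 3 lower in shG8d-specific regions (32.8% to 73.3%). For gene promoters these ranges were 6 to 16 higher and 0 to 8 lower (8.02% to 30.5% and 3.18% to 13.3%). Lost calls were most frequent without a deeper library, at 26 named regions without deeper replicate A and 21 without deeper replicate B. The letters A and B are not stated to pair the libraries. Across regions, the correlation of A minus B between pairs was −0.0039, so no pattern across regions shared by letter was seen. A uniform shift shared by letter would leave this value unchanged. That value cannot tell whether libraries of 1 letter were prepared together. With the replicate block, the gene promoters had 13 higher and 8 lower (22.3% and 11.7% of all), and the common regions 15 higher and 19 lower (11.7% and 16.6%). The shNC-specific regions then had 10 higher and 0 lower (15.7% and 1.29%), and the shG8d-specific ones 3 lower (74.6%). The cause of these changes was not tested. With 2 libraries per pair, small differences at weak regions were not detectable at this depth. Most simulated 2-fold changes were missed as well, but with fewer regions called than in the data, so that share does not carry over.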
